A study of Rattus norvegicus with 16 samples.

Results

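Islets are clusters of endocrine cells in the pancreas that also hold resident macrophages. The present account follows marker genes of blood-derived cells (macrophages, T cells, B cells and leukocytes in general), chosen as a list of 38 genes that includes the B cell chemokine Cxcl13. Of these, 36 had at least 1 probe set of that single symbol on the array, out of 14217 genes measured; Ccr7 and Spi1 had none and are not analysed here. Each gene is represented by its probe set with the highest mean log2 intensity over the 16 arrays. The genes fall into 5 groups: 6 pan-leukocyte genes, 8 T cell genes, 5 B cell and follicle genes, 1 homing receptor and 16 macrophage and myeloid genes.

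RNA came from primary pancreatic islets of male Wistar rats aged 8 weeks, cultured in medium with 8 mM glucose and 10% serum. Islets of the AdNkx6.1 group (5 arrays) received an adenovirus expressing the beta cell transcription factor Nkx6.1. The Adβgal group (6 arrays) received an adenovirus expressing bacterial β-galactosidase, which serves as the control virus. Both viruses were washed out after 18 h, and RNA was taken 48 h after they were added. The untreated group (5 arrays) received no virus. The treatment protocol speaks of 5 replicates per condition, and all 6 Adβgal arrays were used. The titles call the arrays biological replicates without naming animals, so the p-values measure the spread between these samples. Every group consisted of whole islets, in which fewer cells of a type and less RNA per cell cannot be told apart.

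A macrophage is recognised by genes for engulfment and complement, such as Cd68, Csf1r (the receptor for colony stimulating factor 1) and the C1q subunits. A T cell carries the CD3 chains (Cd3d, Cd3e, Cd3g), which pass the antigen signal inside through the kinase Lck. A B cell carries Ms4a1 (CD20), the complement receptor Cr2 (CD21), Cd79b of the B cell receptor and immunoglobulin light chains such as Iglc1. Cxcl13 is the chemokine that draws B cells into lymphoid follicles, where stromal cells and follicular dendritic cells make it. Macrophages are the main resident leukocytes of healthy islets, while lymphocytes are scarce there.

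Levels below are log2 of the deposited array intensities, on which 1 unit is a factor of 2, and each log2 change is a difference of group means with its SE. That SE draws on the spread within every group, also a group outside the comparison. Array medians were 8.05 to 8.21. Calls of presence or absence per probe set did not enter the comparisons, so a low value is not a measured absence, and a difference from a low value may understate the change. The endocrine markers checked the tissue: the insulin gene Ins2 lay at 14.61 to 14.91 with AdNkx6.1, 14.67 to 14.82 with Adβgal and 14.72 to 14.91 untreated. Arrays correlated with others of their group at r of at least 0.991 with AdNkx6.1, 0.969 with Adβgal and 0.996 untreated (over genes), so the Adβgal arrays differed most among themselves. Nkx6-1 was lower with AdNkx6.1 (11.19 to 11.65) than with Adβgal (11.65 to 12.13) or untreated (12.09 to 12.33); whether its probe set lies in the delivered sequence is not given in the sources used here, so it does not check the labels.

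Between groups, 10 of the 36 genes passed the test in at least 1 comparison, where passing, or being called, means an adjusted p under 0.05 over all 14217 genes by limma. AdNkx6.1 against Adβgal had 1 gene higher (Lck; 16.6% of all genes were called higher) and 1 lower (Adgre1; 8.48% of all genes), 5.56% of the list against 25% of all genes in either direction. The median log2 change of the list was -0.27, against 0.02 over all genes. For Adβgal over untreated, 2 genes were higher (Cxcl13, Adgre1; 2.84% of all genes) and 2 lower (Cd4, Trem2; 4.17% of all genes), 11.1% of the list against 7.01% of all genes. The median was 0.11, against -0.04 over all genes. For AdNkx6.1 over untreated, 2 were higher (Cxcl13, Lck; 16.9% of all genes) and 7 lower (Cd4, Cd53, Csf1r, Laptm5, Mrc1, Trem2, Tyrobp; 13.8% of all genes), 25% of the list against 30.7% of all genes. The median was -0.11, against -0.01 over all genes. The untreated and Adβgal arrays each enter 2 of the 3 comparisons, which are therefore not independent.

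Adβgal replicates 4, 5 and 6, the arrays that stand apart below, were left out because of values of the listed genes. Calls gained or lost without them are thus a description and not an independent test. Without them, 1 gene was higher and 0 were lower for AdNkx6.1 against Adβgal, where 2554 and 1474 of all 14217 genes were. For Adβgal over untreated, 1 was then higher (Adgre1; 245 of all genes) and 4 were lower (Cd53, Laptm5, Trem2, Tyrobp; 307 of all genes). For AdNkx6.1 over untreated, 2 were higher (3231 of all genes) and 9 lower, Cd8a and Cybb in addition to the 7 (2913 of all genes). All AdNkx6.1 arrays lay above all Adβgal arrays in 1 gene (Lck; 10.4% of all genes) and below them in 0 (3.78% of all genes), 14.2% of all genes in either direction. All Adβgal arrays lay above all untreated arrays in 3 genes (Cxcl13, Adgre1, Aif1; 2.05% of all genes) and below in 0 (4.83% of all genes), 6.88% of all genes in either direction. All AdNkx6.1 arrays lay above all untreated arrays in 2 genes (Cxcl13, Lck; 17.4% of all genes) and below in 3 (Laptm5, Trem2, Csf1r; 14.7% of all genes), 32.1% of all genes in either direction.

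**Figure D1:**
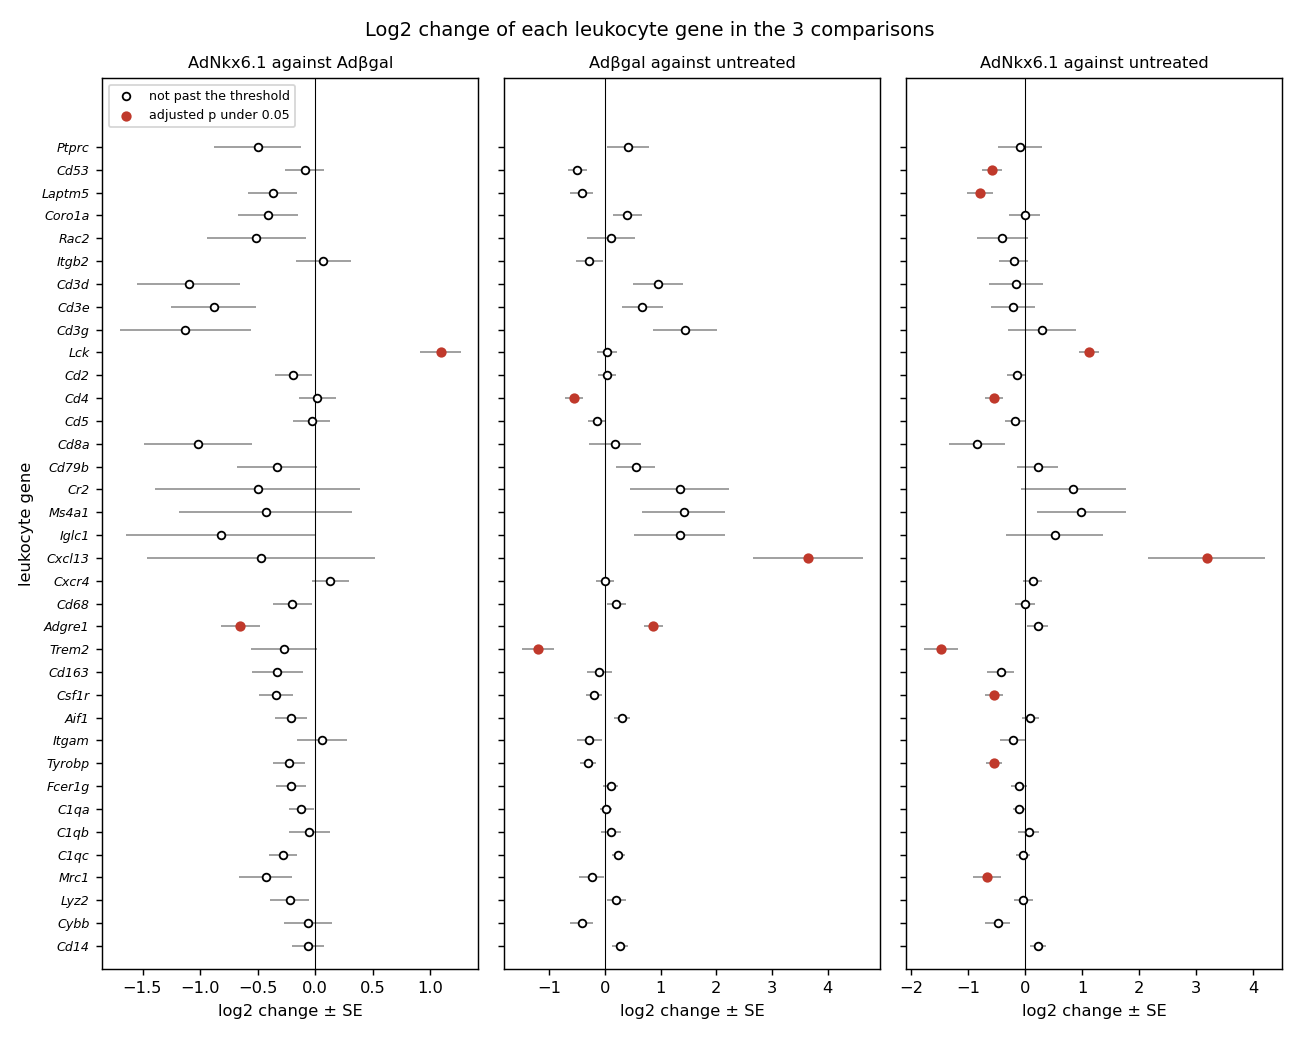
Log2 change ± SE (limma) of each of the 36 leukocyte genes for AdNkx6.1 against Adβgal, Adβgal against untreated and AdNkx6.1 against untreated; filled points have an adjusted p under 0.05 over all genes. The genes called were 2, 4 and 9 in that order, and the widest error bars belong to Cxcl13, Cr2, Iglc1 and Ms4a1.

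The lymphocyte genes varied widely between arrays of a group. The SD among Adβgal arrays exceeded 1 log2 unit in 9 of 36 leukocyte genes, against 1.77% of all genes. With AdNkx6.1 the SD exceeded 1 in 4 leukocyte genes (0.113% of all genes), and in 0 untreated (0.0141% of all genes). These 4 were Cr2, Ms4a1, Iglc1 and Cxcl13, and the 9 in the Adβgal group were the same 4 with Cd3d, Cd3e, Cd3g, Cd8a and Rac2. The list was chosen with earlier results of these data known, so its excess over all genes is not independent of that choice. Every one of the 36 genes had a larger SD with Adβgal than untreated, as did 87% of all genes. In the array by array map of the 36 genes, the darkest red cells stand on single arrays of the virus groups.

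**Figure D2:**
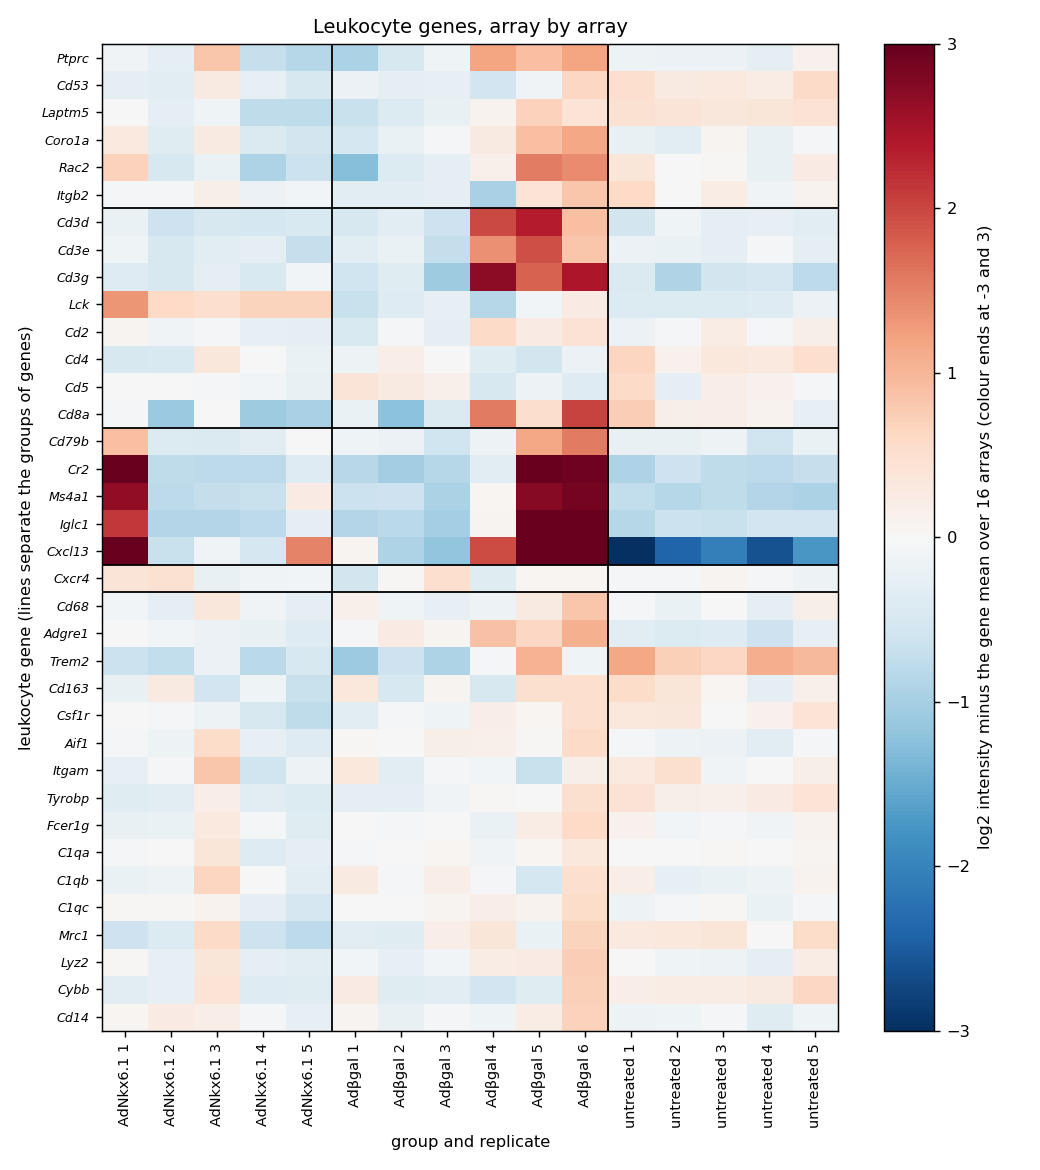
Log2 intensity of each of the 36 leukocyte genes (rows) on each of the 16 arrays (columns), minus the gene's mean over the 16 arrays; black lines separate the groups of genes and of arrays, and values beyond the ends of the colour scale take its end colours. B cell genes were high on AdNkx6.1 replicate 1 and Adβgal replicates 5 and 6, and CD3 genes were high on Adβgal replicates 4, 5 and 6.

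B cell genes marked 3 arrays. Cr2 had 7.3, 3.41, 3.39, 3.39 and 3.79 on AdNkx6.1 replicates 1 to 5, against 3.34, 3.15, 3.32, 3.85, 7.77 and 7.11 on Adβgal replicates 1 to 6 and 3.25 to 3.56 on the untreated arrays. AdNkx6.1 replicate 1 and Adβgal replicates 5 and 6 thus stood at least 3.26 above every other array, and the groups overlapped. All 5 probe sets of Cr2 had these same 3 arrays highest. Of the other 4, the one with the highest single value reached 5.57 on AdNkx6.1 replicate 1 and 9.05 and 6.22 on Adβgal replicates 5 and 6, against 2.98 to 3.32 untreated.

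Ms4a1, the surface protein CD20 of B cells, had 6.62, 3.17, 3.26, 3.3 and 4.22 with AdNkx6.1, against 3.31, 3.34, 3.02, 4.02, 6.7 and 6.83 with Adβgal and 3.02 to 3.23 untreated. The same arrays were high, and AdNkx6.1 replicate 5 and Adβgal replicate 4 lay between them and the rest. Iglc1, a constant region of the immunoglobulin lambda light chain, had 6.3, 3.3, 3.31, 3.39 and 3.88 with AdNkx6.1, against 3.31, 3.36, 3.16, 4.25, 7.6 and 7.44 with Adβgal and 3.32 to 3.6 untreated. Its order was alike, with Adβgal replicate 4 and AdNkx6.1 replicate 5 again next below the high arrays. Cd79b, a signalling chain of the B cell receptor, had 6.66, 5.35, 5.33, 5.42 and 5.75 with AdNkx6.1, against 5.62, 5.58, 5.15, 5.61, 6.93 and 7.32 with Adβgal and 5.17 to 5.61 untreated. Its gap below the 3 high arrays was 0.91.

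None of these 4 B cell genes was called in a comparison. The log2 change of Cr2 was -0.5 ± 0.89 between the viruses (limma adjusted p = 0.73), 1.34 ± 0.89 for Adβgal over untreated (0.37) and 0.84 ± 0.92 for AdNkx6.1 over untreated (0.54). Without AdNkx6.1 replicate 1 and Adβgal replicates 4, 5 and 6 (left out together on the strength of these values), the 3 changes of Cr2 were 0.22 ± 0.11, -0.15 ± 0.1 and 0.08 ± 0.09. Ms4a1 in the same setting changed by 0.26 ± 0.2, 0.09 ± 0.19 and 0.36 ± 0.18, none of them called. Of the other B cell and follicle genes listed as context, 23 were measured. Their mean deviation from each gene's own mean was 0.52 on AdNkx6.1 replicate 1, 1.13 and 0.67 on Adβgal replicates 5 and 6, and between -0.32 and 0.07 on the remaining arrays. With AdNkx6.1 against untreated, 1 of the 23 rose and 2 fell (13%, against 30.7% of all genes). Cd40 rose 2.82-fold (limma adjusted p = 1.9e-05), and Fcrl2 and Xbp1 fell 1.55-fold and 1.17-fold (0.038 and 0.031). Between the viruses only Cd40 was called, 2.15-fold higher with AdNkx6.1 (0.00026), where 25% of all genes were called. With Adβgal against untreated 0 were called.

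**Figure D3:**
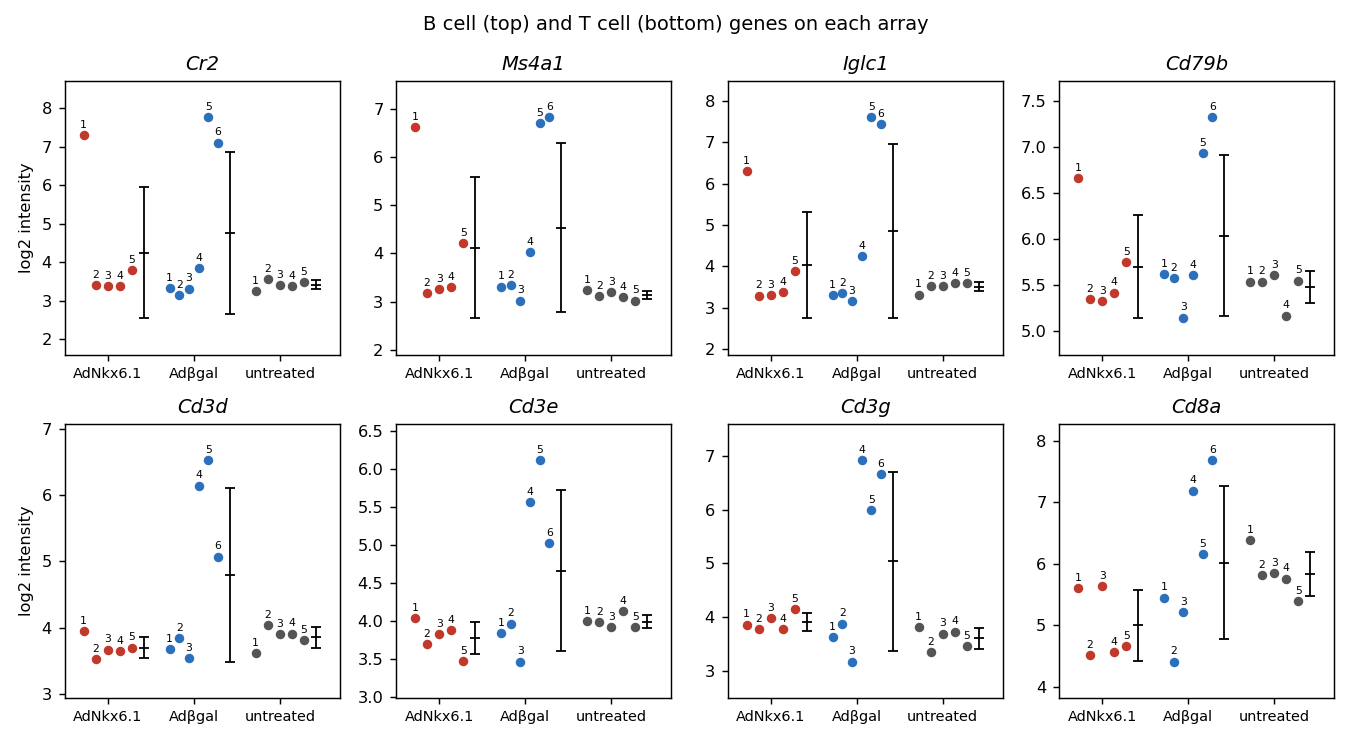
Log2 intensity of 4 B cell genes (top) and 4 T cell genes (bottom) on each array; numbers are the replicates, and the black bar beside each group is its mean ± SD (n = 5 AdNkx6.1, 6 Adβgal, 5 untreated). Adβgal replicates 5 and 6 were high for both kinds of gene, Adβgal replicate 4 for the CD3 genes, and AdNkx6.1 replicate 1 for the B cell genes.

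The CD3 genes marked another set of arrays. Cd3g, a chain of the T cell receptor complex, had 3.86, 3.77, 3.98, 3.78 and 4.15 with AdNkx6.1, against 3.63, 3.88, 3.17, 6.92, 6 and 6.66 with Adβgal and 3.34 to 3.81 untreated. Adβgal replicates 4, 5 and 6 were the high ones, 1.85 above the next array. Cd3d had 3.53 to 3.95 with AdNkx6.1, against 3.68, 3.84, 3.54, 6.14, 6.52 and 5.07 with Adβgal and 3.61 to 4.04 untreated. Cd3e had 3.48 to 4.04 with AdNkx6.1, against 3.84, 3.97, 3.47, 5.56, 6.11 and 5.02 with Adβgal and 3.92 to 4.13 untreated. In all 3 chains, Adβgal replicates 1, 2 and 3 lay within or below the range of the AdNkx6.1 arrays. The dimmer probe set of Cd3e had 3.96, 3.8 and 3.91 on Adβgal replicates 4, 5 and 6. There AdNkx6.1 replicate 2 had 3.81, and the untreated arrays 3.33 to 3.63.

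AdNkx6.1 replicate 1, on which the B cell genes were high, had CD3 values of 3.95 (Cd3d), 4.04 (Cd3e) and 3.86 (Cd3g), against highest untreated values of 4.04, 4.13 and 3.81. Cd8a, the co-receptor chain of cytotoxic T cells, had 4.52 to 5.64 with AdNkx6.1, against 5.45, 4.41, 5.21, 7.19, 6.16 and 7.68 with Adβgal and 5.39 to 6.39 untreated. Its highest arrays were Adβgal replicates 6 and 4, then untreated replicate 1. Cd8a was called lower with AdNkx6.1 than untreated without Adβgal replicates 4, 5 and 6 (-0.84 ± 0.27, adjusted p = 0.024) but not with all arrays. On its dimmer probe sets the same group means differed by -0.29 and -0.02. Cd2, an adhesion receptor of T cells, had Adβgal replicates 4, 5 and 6 highest as well, but at 5.96 to 6.3 they stood only 0.01 above an untreated array. Cd5, another T cell surface receptor, went the other way on these arrays, at 6.99, 7.31 and 7.07, against 7.62 to 7.85 on Adβgal replicates 1, 2 and 3.

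None of the CD3 genes was called with all arrays. For AdNkx6.1 against Adβgal the log2 changes were -1.1 ± 0.45 in Cd3d (limma adjusted p = 0.089), -0.88 ± 0.37 in Cd3e (0.097) and -1.13 ± 0.57 in Cd3g (0.17). Without Adβgal replicates 4, 5 and 6 together they were 0.01 ± 0.11, 0.03 ± 0.13 and 0.35 ± 0.15. Without Adβgal replicate 3, where the CD3 values were lowest, all 3 chains were called lower with AdNkx6.1 than with Adβgal and Cd3g was called higher with Adβgal than untreated. Without Adβgal replicate 1, Cd3d was called lower with AdNkx6.1 than with Adβgal. In a fit of the AdNkx6.1 and untreated arrays alone, Cd3g was called higher with AdNkx6.1.

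Genes of other tissue also differed between arrays, in part on the same ones. The mean deviation of 25 acinar cell genes, which mark the enzyme-secreting exocrine pancreas, was 1.68, 1.09 and 1.16 on Adβgal replicates 4, 5 and 6, and ranged from -1.23 to 0.49 on the other arrays. On AdNkx6.1 replicate 1, with high B cell genes, it was -0.25, within the range of -0.74 to 0.08 on the untreated arrays. The sum of the acinar intensities ran from 36722 to 95003 with AdNkx6.1, 35785 to 168439 with Adβgal and 46576 to 74010 untreated. The mean deviation of 17 endothelial genes was 1.48 on Adβgal replicate 5, 0.68 on replicate 6 and -0.02 on replicate 4, with -1.23 on replicate 1. It was also 0.5 on Adβgal replicate 3, where the CD3 and B cell genes were low, and 0.37 and 0.29 on AdNkx6.1 replicates 1 and 2. The untreated arrays ran from -0.32 to -0.12. The part of exocrine, vascular or lymphoid tissue in the lymphocyte values was not tested.

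**Figure D4:**
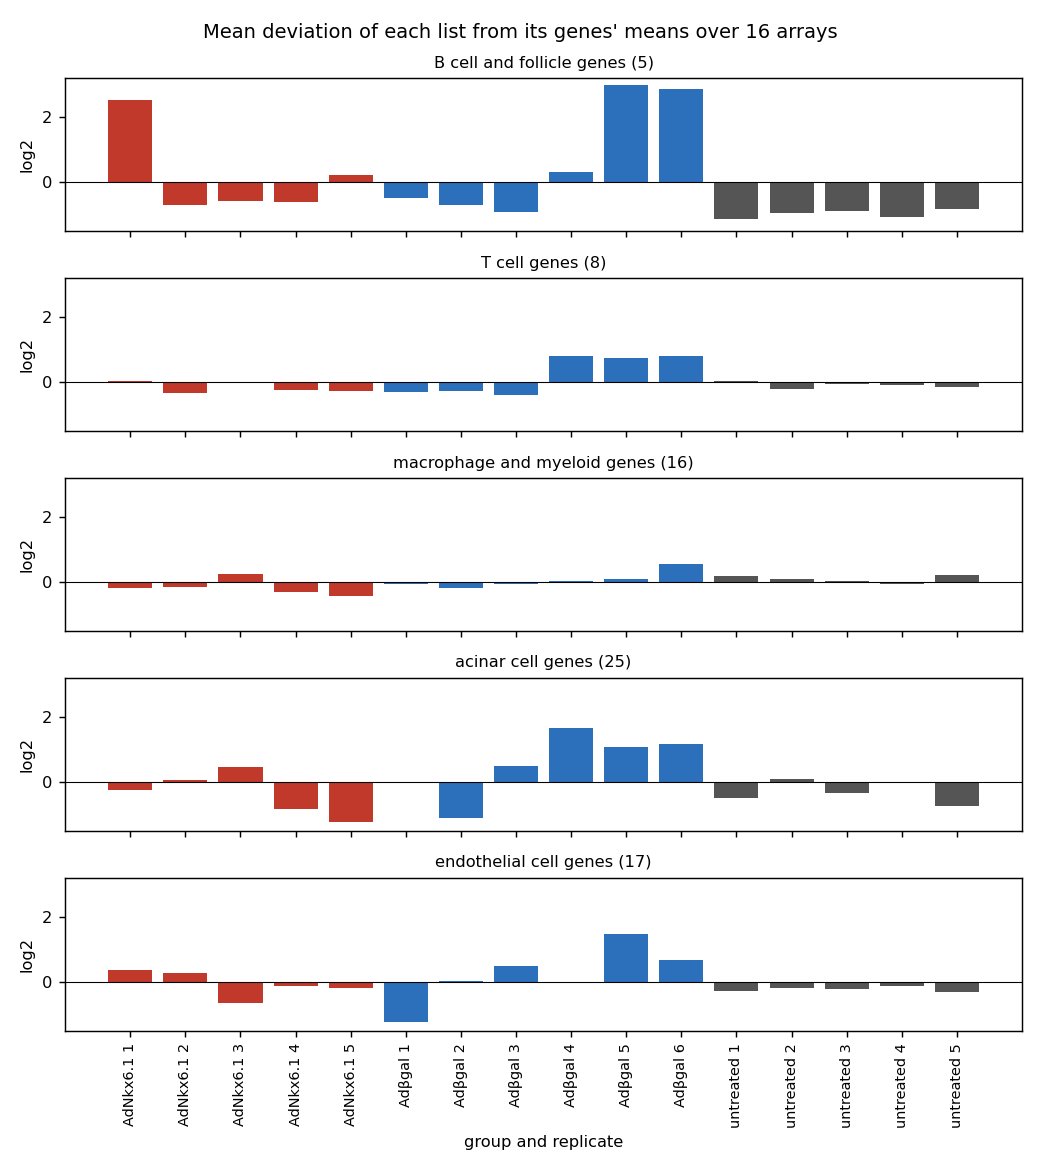
Mean over the genes of a list of the log2 deviation from each gene's mean over 16 arrays, for each array (bars from 0; red AdNkx6.1, blue Adβgal, grey untreated); the number of genes is in brackets. The B cell bars were tall on 3 arrays, the T cell and acinar bars on Adβgal replicates 4, 5 and 6, and the macrophage bars stayed between -0.42 and 0.55.

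Cxcl13, the fifth gene of the B cell and follicle group, was called higher in both virus groups than in untreated islets. It had 10.91, 6.36, 6.91, 6.52 and 8.52 on AdNkx6.1 replicates 1 to 5, 7.1, 6.1, 5.85, 8.98, 11.04 and 10.78 on Adβgal replicates 1 to 6, and 4.04, 4.61, 4.98, 4.4 and 5.27 on the untreated arrays. The highest values were on the arrays with high B cell genes, yet every array of either virus lay above every untreated array. The log2 change was 3.18 ± 1.03 for AdNkx6.1 against untreated (9.08-fold, limma adjusted p = 0.028) and 3.65 ± 0.99 for Adβgal against untreated (12.5-fold, adjusted p = 0.036). Between the viruses it was -0.47 ± 0.99 (adjusted p = 0.78).

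Without AdNkx6.1 replicate 1 and Adβgal replicates 4, 5 and 6 together, the change of Cxcl13 against untreated was 2.42 ± 0.42 for AdNkx6.1 (adjusted p = 0.00069) and 1.69 ± 0.46 for Adβgal (adjusted p = 0.063). Without the 3 Adβgal arrays alone it was 1.69 ± 0.82 for Adβgal (adjusted p = 0.25). The Adβgal call also ended when any 1 of Adβgal replicates 4, 5 and 6 or of the untreated arrays was left out, and the AdNkx6.1 call without AdNkx6.1 replicate 1 or 5 or untreated replicate 1, 2 or 4. On a log2(intensity + 32) scale neither was called (adjusted p = 0.077 for AdNkx6.1 and 0.069 for Adβgal), and the Adβgal call was also lost with the replicate block (0.087), in a fit of the 2 groups alone (0.055) and with array weights (0.066). These comparisons share the untreated arrays. The stretch around its start, shown as the gene whose level separated virus from no virus, is the 300 bases that RefSeq gives on build GRCr8, 5′ to 3′ on the strand of the gene. The stretch of Cr2, as the gene with the widest gap between arrays, stands beside it, and neither holds the letters GAGGAA on either strand, which are given in capitals where they occur in later sequences.
Cxcl13 (chr14:13917871-13918170, - strand): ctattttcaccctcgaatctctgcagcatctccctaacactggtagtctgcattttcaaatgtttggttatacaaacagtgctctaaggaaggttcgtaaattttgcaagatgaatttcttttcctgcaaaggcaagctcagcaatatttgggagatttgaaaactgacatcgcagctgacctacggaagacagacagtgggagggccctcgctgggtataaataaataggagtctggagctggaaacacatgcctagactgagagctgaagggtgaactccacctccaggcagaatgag
Cr2 (chr13:109244457-109244756, - strand): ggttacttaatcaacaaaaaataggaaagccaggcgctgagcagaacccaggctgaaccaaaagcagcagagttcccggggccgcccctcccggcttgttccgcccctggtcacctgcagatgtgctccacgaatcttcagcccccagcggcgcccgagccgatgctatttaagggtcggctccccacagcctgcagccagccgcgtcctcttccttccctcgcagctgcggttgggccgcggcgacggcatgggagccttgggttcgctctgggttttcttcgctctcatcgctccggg

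Lck, the kinase that starts signalling from the T cell receptor, rose with AdNkx6.1. It had 8.5, 7.78, 7.69, 7.85 and 7.86 with AdNkx6.1, against 6.51, 6.79, 6.94, 6.33, 7.11 and 7.42 with Adβgal and 6.77, 6.77, 6.76, 6.8 and 7.01 untreated. Every AdNkx6.1 array lay above every other array. The log2 change was 1.09 ± 0.18 against Adβgal (2.13-fold, limma adjusted p = 0.00026) and 1.12 ± 0.18 against untreated (2.17-fold, adjusted p = 0.00025). Adβgal differed from untreated by 0.03 ± 0.18 (adjusted p = 0.94).

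Both rises of Lck passed in every alternative tried, and without AdNkx6.1 replicate 1 and Adβgal replicates 4, 5 and 6 together they were 1.05 ± 0.1 and 0.97 ± 0.09. On the same AdNkx6.1 arrays the CD3 chains lay at 3.48 to 4.15. Their changes against untreated were -0.16 ± 0.47 (Cd3d), -0.21 ± 0.39 (Cd3e) and 0.3 ± 0.6 (Cd3g), none called. These SEs take in the wide Adβgal spread. Without Adβgal replicates 4, 5 and 6 the SEs were 0.09, 0.11 and 0.13, again with no call. In the fit of the AdNkx6.1 and untreated arrays alone, Cd3g was called higher. The difference between Lck and the CD3 genes was not tested. Of 28 other T and natural killer cell genes measured, 1 rose and 2 fell with AdNkx6.1 against untreated (10.7%, against 30.7% of all genes): Tcf7, a transcription factor of T cells, rose 1.83-fold (adjusted p = 0.013), and Cd8b, the partner chain of Cd8a, and Skap1, an adaptor of T cell signalling, fell 1.62-fold (7.9e-05) and 2.04-fold (0.00027). Tcf7 also rose with Adβgal against untreated (2.02-fold, adjusted p = 0.016), and Cd8b also fell there (1.32-fold, adjusted p = 0.022). Lck is measured by 1 probe set. RefSeq lists 2 starts for Lck, and the stretches around them, shown because this is the 1 listed gene that separated AdNkx6.1 from both other groups, hold no GAGGAA on either strand.
Lck, upstream start (chr5:147201218-147201517, - strand): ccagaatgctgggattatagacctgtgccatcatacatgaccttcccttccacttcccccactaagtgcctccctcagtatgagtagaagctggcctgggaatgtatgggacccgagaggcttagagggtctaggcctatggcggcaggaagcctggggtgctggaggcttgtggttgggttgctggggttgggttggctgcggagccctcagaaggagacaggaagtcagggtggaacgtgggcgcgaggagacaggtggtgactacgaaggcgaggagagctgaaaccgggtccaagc
Lck, downstream start (chr5:147183601-147183900, - strand): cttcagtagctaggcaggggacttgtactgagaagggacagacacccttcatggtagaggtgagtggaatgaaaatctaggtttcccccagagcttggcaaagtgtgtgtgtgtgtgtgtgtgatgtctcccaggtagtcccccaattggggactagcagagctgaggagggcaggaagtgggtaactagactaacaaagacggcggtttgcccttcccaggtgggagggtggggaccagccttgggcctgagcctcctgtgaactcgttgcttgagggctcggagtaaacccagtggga

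Cd4, the co-receptor of helper T cells that rat macrophages also carry, fell in both virus groups. It had 4.82, 4.85, 5.65, 5.3 and 5.12 with AdNkx6.1, against 5.96, 5.45, 5.62, 5.6 and 5.82 untreated, a log2 change of -0.54 ± 0.16 (limma adjusted p = 0.019). With Adβgal it had 5.16, 5.5, 5.3, 4.94, 4.75 and 5.13, a change of -0.56 ± 0.16 against untreated (adjusted p = 0.042). Both virus groups overlapped the untreated range. The AdNkx6.1 call depended on AdNkx6.1 replicates 1 and 2 and untreated replicate 1, ending when any of them was left out. The Adβgal call was lost with the replicate block (adjusted p = 0.13), with array weights (0.054), after quantile normalization again, without any 1 of 11 arrays (AdNkx6.1 replicates 4 and 5, Adβgal replicates 1, 4, 5 and 6 and each untreated array), and without Adβgal replicates 4, 5 and 6 together (-0.37 ± 0.17, adjusted p = 0.24).

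The 16 macrophage genes had a median SD of 0.29 with AdNkx6.1, 0.35 with Adβgal and 0.17 untreated, against 0.15, 0.23 and 0.12 over all genes. The 5 B cell and follicle genes had median SDs of 1.47, 2.1 and 0.12 in the same groups, and the 8 T cell genes 0.18, 0.74 and 0.18. Fcer1g and Tyrobp, the adaptors through which myeloid receptors signal, lay at 11.26 to 11.91 and 9.76 to 10.36 with AdNkx6.1, 11.43 to 12.23 and 9.87 to 10.66 with Adβgal, and 11.51 to 11.76 and 10.33 to 10.61 untreated. The summed intensity of the 16 macrophage genes ran from 13199 to 21420 with AdNkx6.1, 15879 to 26517 with Adβgal and 16027 to 19524 untreated. The SD within a group was under 0.5 in 14 of the 16 genes with AdNkx6.1 (98.1% of all genes), in 15 with Adβgal (86.3%) and in 16 untreated (99.2%).

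Their highest arrays were often the same. AdNkx6.1 replicate 3 was the highest of its group in 12 of the 16 macrophage genes, as it was in 18.1% of all genes. Adβgal replicate 6 was the highest of its group in 14 of the 16, as in 9.56% of all genes. Adβgal replicate 6 was thus high for B cell, CD3 and macrophage genes alike, while AdNkx6.1 replicate 3 had a Cr2 value of 3.39. The mean deviation of the 16 macrophage genes was 0.24 on AdNkx6.1 replicate 3, 0.55 on Adβgal replicate 6 and -0.18 on AdNkx6.1 replicate 1.

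Trem2, a lipid-sensing receptor of macrophages, showed the largest fall among the 36 genes. It had 5.41, 5.32, 5.88, 5.25 and 5.56 with AdNkx6.1, against 7.21, 6.77, 6.68, 7.14 and 7.03 untreated. The groups did not overlap, and the log2 change was -1.48 ± 0.3 (2.79-fold lower, limma adjusted p = 0.0014). With Adβgal it had 4.97, 5.42, 5.13, 6, 7.1 and 5.91, a change of -1.21 ± 0.29 against untreated (2.32-fold lower, adjusted p = 0.02). Adβgal replicate 5 was the 1 virus array within the untreated range.

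On the dimmer probe set of Trem2, Adβgal replicate 5 had 5.39, and all virus arrays (4.92 to 5.69 with AdNkx6.1, 5.27 to 5.95 with Adβgal) lay below all untreated arrays (6.25 to 6.57). Its group means differed from untreated by -1.15 with AdNkx6.1 and -0.86 with Adβgal. Without Adβgal replicates 4, 5 and 6 together, the change of the main probe set for Adβgal against untreated was -1.79 ± 0.16 (adjusted p = 9.7e-05). The call with Adβgal was lost without untreated replicate 1, 4 or 5 (adjusted p up to 0.054), with the replicate number as a block (0.054) and in a fit of the 2 groups alone (0.063).

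Adgre1, the macrophage surface protein F4/80, was lower with AdNkx6.1 than with Adβgal and higher with Adβgal than untreated. It had 8.58, 8.5, 8.41, 8.38 and 8.21 with AdNkx6.1, against 8.53, 8.85, 8.67, 9.48, 9.21 and 9.67 with Adβgal and 8.28, 8.18, 8.2, 7.98 and 8.35 untreated. Every Adβgal array lay above every untreated array, while AdNkx6.1 overlapped both. Adgre1 rose with Adβgal against untreated by 0.87 ± 0.17 (1.83-fold, limma adjusted p = 0.0081), and fell with AdNkx6.1 against Adβgal by 0.65 ± 0.17 on the log2 scale (1.57-fold, adjusted p = 0.011). AdNkx6.1 against untreated gave 0.22 ± 0.18 (adjusted p = 0.4).

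Without Adβgal replicates 4, 5 and 6, where Adgre1 was highest, the rise with Adβgal was 0.48 ± 0.1 (adjusted p = 0.025) and the change between viruses was -0.27 ± 0.1 (adjusted p = 0.074). No other of the 16 listed macrophage genes was called higher with Adβgal than untreated with all arrays. Cd68, a lysosomal protein of macrophages, differed by 0.2 ± 0.17 in that comparison (adjusted p = 0.5), C1qa by 0.02 ± 0.11 (0.94) and Csf1r by -0.2 ± 0.15 (0.43). Outside the list, Fcgr3a, from the macrophage and dendritic cell genes that serve as context, was called higher there (1.77-fold, limma adjusted p = 0.018). Aif1, an actin-binding protein of macrophages, also had all Adβgal arrays (9.32 to 9.92) above all untreated arrays (9.03 to 9.3), with a change of 0.3 ± 0.14 that was not called (adjusted p = 0.2). On its dimmer probe set these groups overlapped (3.42 to 3.71 with Adβgal, 3.28 to 3.72 untreated).

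**Figure D5:**
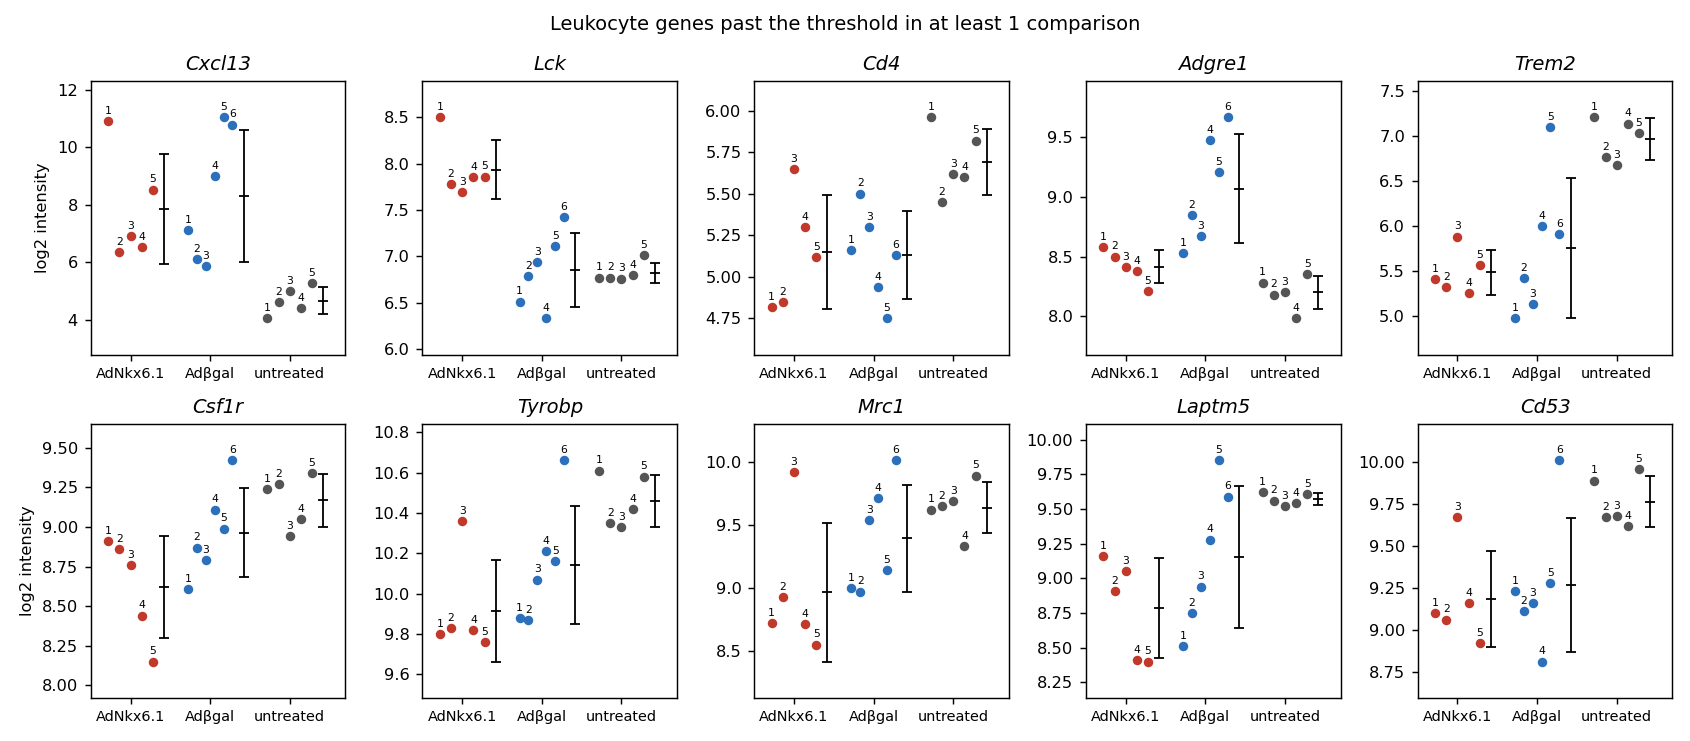
Log2 intensity on each array of the 10 leukocyte genes past the threshold in at least 1 comparison; numbers are the replicates, and the black bar beside each group is its mean ± SD (n = 5 AdNkx6.1, 6 Adβgal, 5 untreated). All virus arrays lay above the untreated arrays for Cxcl13, all AdNkx6.1 arrays above the others for Lck, and all AdNkx6.1 arrays below the untreated arrays for Trem2, Csf1r and Laptm5.

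Csf1r, on whose signal macrophages depend, had 8.91, 8.86, 8.76, 8.44 and 8.15 with AdNkx6.1, against 9.24, 9.27, 8.94, 9.05 and 9.34 untreated. All AdNkx6.1 arrays were lower, by a log2 change of -0.54 ± 0.16 (1.46-fold, limma adjusted p = 0.016). Tyrobp, the adaptor on which Trem2 signals, had 9.8, 9.83, 10.36, 9.82 and 9.76 with AdNkx6.1, against 10.61, 10.35, 10.33, 10.42 and 10.58 untreated, a change of -0.54 ± 0.14 (adjusted p = 0.0097). AdNkx6.1 replicate 3 alone reached the untreated range. Mrc1, the mannose receptor, had 8.72, 8.93, 9.92, 8.71 and 8.55 with AdNkx6.1, against 9.62, 9.65, 9.69, 9.33 and 9.89 untreated, a change of -0.67 ± 0.24 (adjusted p = 0.048). Its highest value was again AdNkx6.1 replicate 3, and the call was lost without any 1 of 9 arrays (AdNkx6.1 replicates 1, 2, 4 and 5, Adβgal replicate 3 and untreated replicates 1, 2, 3 and 5), with adjusted p-values up to 0.12. Against Adβgal, Csf1r, Tyrobp and Mrc1 changed by -0.34 ± 0.15, -0.23 ± 0.14 and -0.43 ± 0.23 (adjusted p = 0.12, 0.26 and 0.2). Adβgal over untreated gave -0.2 ± 0.15, -0.31 ± 0.14 and -0.24 ± 0.23 (0.43, 0.17 and 0.55). None of these was called with all arrays.

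The other 11 macrophage genes were not called in any comparison with all arrays. Without Adβgal replicates 4, 5 and 6, Cybb was called lower with AdNkx6.1 than untreated (-0.48 ± 0.16, adjusted p = 0.028), and with array weights Cybb, C1qa and Cd163 were. Array weights or the loss of AdNkx6.1 replicate 3 also brought calls of lower Aif1 between the viruses, and array weights those of C1qc and Fcer1g. For AdNkx6.1 against untreated, their log2 changes (each ± SE) ran from -0.48 ± 0.22 in Cybb, the catalytic subunit of the phagocyte oxidase (adjusted p = 0.11), to 0.22 ± 0.14 in Cd14, a receptor for bacterial lipopolysaccharide (adjusted p = 0.29). The complement genes C1qa, C1qb and C1qc differed by -0.1 ± 0.12, 0.06 ± 0.19 and -0.04 ± 0.12, and the lysozyme gene Lyz2 by -0.03 ± 0.17. Itgam, an integrin chain of myeloid cells, differed by -0.21 ± 0.23 and Cd163, the haemoglobin scavenger receptor, by -0.43 ± 0.23. Of 48 other macrophage and dendritic cell genes measured, 2 rose and 6 fell with AdNkx6.1 against untreated (16.7% called, against 30.7% of all genes). Clec7a, a receptor for fungal glucans, fell 2.57-fold (adjusted p = 1.1e-05), the elastase gene Mmp12 1.96-fold (0.00016) and Gpnmb, a membrane glycoprotein of macrophages, 1.49-fold (0.0038). Batf3, a transcription factor of dendritic cells, rose 2.42-fold (2.5e-06). With Adβgal against untreated, 1 of these 48 genes rose and 3 fell (8.33% called, against 7.01% of all genes). Clec7a and Mmp12 fell there as well, 2.02-fold and 1.59-fold (limma adjusted p = 0.0018 and 0.012), and Csf2rb fell 1.28-fold (0.045). Fcgr3a rose 1.77-fold (0.018). Batf3 was 2.22-fold higher with AdNkx6.1 than with Adβgal (5.5e-06).

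The promoters of macrophage genes are shown for a shared feature that the choice of genes did not use. Spi1 (PU.1), the factor that directs macrophage development, binds DNA around the letters GAGGAA. Searched on both strands of the 300 bases around each start, GAGGAA was in 10 of 12 macrophage genes with a listed promoter, in 3 of 7 T cell genes, in 3 of 4 pan-leukocyte genes and in 0 of 3 B cell and follicle genes (Cr2, Iglc1 and Cxcl13), against 27.6% of 33469 promoters in the RefSeq table. In all, 27 of the 36 genes had a listed promoter and 16 held the motif. A match is a run of letters and not a shown binding site. Below are the stretches of 3 macrophage genes called in a comparison, on GRCr8 and 5′ to 3′, with GAGGAA or its complement TTCCTC in capitals.
Trem2 (chr9:20151730-20152029, - strand): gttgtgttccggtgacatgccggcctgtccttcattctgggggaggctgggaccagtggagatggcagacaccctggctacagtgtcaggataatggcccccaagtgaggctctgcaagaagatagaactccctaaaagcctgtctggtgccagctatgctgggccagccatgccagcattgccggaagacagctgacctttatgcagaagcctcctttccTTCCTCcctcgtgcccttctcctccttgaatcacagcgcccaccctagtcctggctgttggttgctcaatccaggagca
Csf1r (chr18:56834129-56834428, + strand): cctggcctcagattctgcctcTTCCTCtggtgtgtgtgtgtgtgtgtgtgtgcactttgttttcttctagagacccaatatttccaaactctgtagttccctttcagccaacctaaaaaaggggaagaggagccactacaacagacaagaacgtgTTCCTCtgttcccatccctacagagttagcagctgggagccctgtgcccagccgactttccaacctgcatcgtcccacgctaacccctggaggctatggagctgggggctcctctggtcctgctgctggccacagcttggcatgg
Adgre1 (chr9:2329190-2329489, + strand): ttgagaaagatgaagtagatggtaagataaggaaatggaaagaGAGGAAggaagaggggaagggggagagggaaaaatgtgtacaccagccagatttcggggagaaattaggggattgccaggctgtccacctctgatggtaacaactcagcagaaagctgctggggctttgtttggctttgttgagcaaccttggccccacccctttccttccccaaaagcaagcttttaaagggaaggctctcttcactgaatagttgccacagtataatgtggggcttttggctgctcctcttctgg

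Among the listed pan-leukocyte genes, 2 of 6 fell with AdNkx6.1 against untreated, where 13.8% of all genes fell. Of 19 other pan-leukocyte genes measured as context, 0 were called in this comparison, and their median log2 change was -0.02, against -0.01 over all genes. Laptm5, a lysosomal protein of blood cells, had 9.16, 8.91, 9.05, 8.41 and 8.4 with AdNkx6.1, against 9.62, 9.56, 9.52, 9.54 and 9.61 untreated. The groups did not overlap, and the log2 change was -0.79 ± 0.22 (1.72-fold lower, limma adjusted p = 0.013). Its other probe set differed by -0.54 between the same group means. Cd53, a tetraspanin of leukocytes, had 9.1, 9.06, 9.67, 9.16 and 8.92 with AdNkx6.1, against 9.89, 9.67, 9.68, 9.62 and 9.96 untreated, a change of -0.58 ± 0.18 (adjusted p = 0.022), with AdNkx6.1 replicate 3 alone in the untreated range. The call of Cd53 was lost without AdNkx6.1 replicate 5 or untreated replicate 5.

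Against Adβgal, where Laptm5 reached 9.85 on replicate 5 and Cd53 10.01 on replicate 6, neither gene was called. For Adβgal over untreated, Laptm5 differed by -0.42 ± 0.21 and Cd53 by -0.5 ± 0.17, not called with all arrays (adjusted p = 0.23 and 0.089). With the replicate block Cd53 was called, at -0.65 ± 0.13 (adjusted p = 0.03). Without Adβgal replicates 4, 5 and 6 Laptm5 and Cd53 changed by -0.84 ± 0.16 and -0.6 ± 0.14, and both were called (adjusted p = 0.018 and 0.035). These arrays were chosen on values seen and held the highest Adβgal values of Laptm5. Leaving them out therefore lowers its Adβgal mean by choice. Tyrobp in that setting changed by -0.52 ± 0.13 (adjusted p = 0.042).

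Rac2, a GTPase of blood cells, and Coro1a, an actin regulator of leukocytes, had the arrays of the B cell genes highest, Coro1a by a margin of 0.02. Rac2 had 8.24 on AdNkx6.1 replicate 1 and 6.62 to 7.35 on the other AdNkx6.1 arrays, 9.09 and 8.97 on Adβgal replicates 5 and 6 and 6.28 to 7.71 on the other Adβgal arrays, and 7.33 to 7.91 untreated. Ptprc (CD45), the phosphatase found on all leukocytes, had the pattern of the CD3 genes, at 8.92, 8.65 and 8.93 on Adβgal replicates 4, 5 and 6, against 6.8, 7.27 and 7.62 on replicates 1, 2 and 3. AdNkx6.1 replicate 3, with the high macrophage genes, came next with 8.57. The dimmer probe set of Ptprc did not show this pattern. It had 4.5, 3.69 and 4.5 on Adβgal replicates 4, 5 and 6, against 3.86 to 4.67 untreated. Itgb2, the shared chain of leukocyte integrins, was lowest on Adβgal replicate 4 (7.31) and highest on replicate 6 (9.12). None of Rac2, Coro1a, Ptprc and Itgb2 was called in any comparison with all arrays. Rac2 was called lower with AdNkx6.1 than untreated without Adβgal replicates 4, 5 and 6 and AdNkx6.1 replicate 1 (-0.65 ± 0.2, adjusted p = 0.023). AdNkx6.1 replicate 1 held the highest Rac2 value of its group, so leaving it out lowers that group's mean by choice.

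Cxcr4, the receptor for Cxcl12 that is also found on cells other than leukocytes, ranged from 12.38 to 13.07 with AdNkx6.1, 12.07 to 13.12 with Adβgal and 12.46 to 12.69 untreated. Its log2 change was 0.13 ± 0.16 between the viruses (limma adjusted p = 0.61) and 0.13 ± 0.17 for AdNkx6.1 over untreated (0.62), and its Adβgal and untreated means were both 12.57. Its highest arrays were Adβgal replicate 3 and AdNkx6.1 replicates 2 and 1.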

How the data were processed

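The deposited table holds 1 intensity value per probe set and array on a linear scale, which the submitters' processing notes tie to RMA (a method that corrects background, normalizes arrays to each other and combines probes). Neither a version nor a step back to a linear scale is given in the sources used here. From there, log2 of each deposited intensity was taken with no pseudocount. Of 31099 probe sets, 57 controls were left out, and 20826 with 1 symbol in the platform annotation gave 14217 genes, each represented by the probe set whose log2 mean over 16 arrays was highest. The number of arrays limits the precision.

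A single model of the 3 groups with no block (13 residual degrees of freedom) was fitted in R 4.3.3 by limma 3.58.1, using lmFit and eBayes with 2-sided tests, and p-values were adjusted by Benjamini-Hochberg over all genes. The script was tested on simulated data. Tables and figures used Python 3.11.15, pandas 2.3.3 and matplotlib 3.10.9.

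The genes and lists were chosen with earlier results of these data known, all listed genes may be named, and of each other list up to 4 genes with the smallest p. Lists other than the 36 genes serve as context, with counts, medians or array means only. The promoter sequences are from RefSeq (GRCr8). Alternatives were a replicate block, fits on 2 groups, the mean of all probe sets, quantile normalization again, log2(intensity + 32), a mean log2 of at least 6, array weights, trend with robust eBayes, and leaving out arrays. Whether a replicate number marks shared animals or days is not stated. Correlations of same-numbered deviations ran from -0.39 to 0.25, which cannot show that nothing was shared.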

Additional observations from a re-analysis of the deposited data

Results flagged for a closer look

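Among 108 combinations of gene and group, 13 had a highest or lowest array set far apart from the rest of its group by Dixon's criterion. Chance alone flags about 5% of groups when values are independent and normally spread. The share flagged over all genes was not counted, and many of the 13 share an array, so the count does not set the listed genes apart from others. On AdNkx6.1 replicate 1 these were Cr2 (7.3, next array 3.79), Iglc1 (6.3, next 3.88) and Lck (8.5, next 7.86), all high. On AdNkx6.1 replicate 3 they were Tyrobp (10.36, next 9.83), Mrc1 (9.92, next 8.93) and Cybb (10.72, next 10.07), all high. On Adβgal replicate 6 they were Aif1 (9.92, next 9.51), C1qa (10.59, next 10.32) and C1qc (11.74, next 11.4), all high. Among untreated arrays, replicate 5 was high for Ptprc (7.88, next 7.59), Lck (7.01, next 6.8) and Cybb (10.93, next 10.57), and replicate 4 was low for Cd79b (5.17, next 5.54). Where 3 arrays of a group were high together, as for the CD3 genes with Adβgal, the criterion sets no single array apart.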

How the results depend on the processing

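All 15 calls of a gene in a comparison kept their direction in every alternative tried, of which Cd4 had no value at a mean log2 of at least 6. Lck (both calls), Adgre1 (Adβgal against untreated), Laptm5, Csf1r, Tyrobp and Trem2 (AdNkx6.1 against untreated) were called in all of them. The call of Adgre1 between the viruses was lost in 1 alternative, and the other 7 calls in 2 to 16. Counts of called genes moved as follows. For AdNkx6.1 against Adβgal, lower calls over all 14217 genes numbered 1206 with all arrays and 1800 after quantile normalization again. They numbered 1882 with array weights, 1474 without Adβgal replicates 4, 5 and 6, and 845 to 1357 without single arrays. Of the 36 genes, 1 was lower there with all arrays, 2 after quantile normalization again, 6 with array weights and 0 without Adβgal replicates 4, 5 and 6. Leaving out single arrays gave 1 to 4 of the 36 genes. For Adβgal against untreated, 2 were higher, but 1 with the replicate block, with 2 groups only, with log2(intensity + 32), with array weights, and without Adβgal 4, 5 and 6 with or without AdNkx6.1 1; single arrays gave 1 to 3. There 2 were lower (Cd4, Trem2), but 1 with the replicate block, which was another gene (Cd53), 1 with 2 groups only, quantile normalization again or a mean log2 of at least 6, and 4 without Adβgal 4, 5 and 6 with or without AdNkx6.1 1; single arrays gave 0 to 2. For AdNkx6.1 against untreated, 2 were higher, 3 with 2 groups only (Cd3g in addition), 1 with log2(intensity + 32) and 1 to 2 without single arrays. There 7 were lower, but 11 with array weights, 9 with 2 groups only, 9 without Adβgal 4, 5 and 6, 8 without AdNkx6.1 1 as well, 6 with log2(intensity + 32) or a mean log2 of at least 6, and 5 to 8 without single arrays. What arrays of the same replicate number share is not stated. With the block, all-gene calls for Adβgal against untreated numbered 393, against 997 without it. They numbered 521 with 2 groups only, 552 without Adβgal 4, 5 and 6 (550 also without AdNkx6.1 1), 1790 with array weights, and 509 to 1503 without single arrays. For AdNkx6.1 against untreated, array weights gave 7469 calls, against 4360. Lower calls over all genes there numbered 3607 with array weights, 2933 with 2 groups only and 2913 without Adβgal 4, 5 and 6, against 1956. Arrays per group limit the precision, and low probe sets have no detection call here. The cause of these moves was not tested.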

Other observations

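Of 29 measured chemokine and adhesion genes that recruit leukocytes, 5 rose and 1 fell with AdNkx6.1 against untreated (20.7%, against 30.7% of all genes). Icam1, an adhesion molecule that leukocytes bind, averaged 11.17 with AdNkx6.1 and 9.28 untreated (3.71-fold, limma adjusted p = 3.4e-06), and was 3.15-fold higher with AdNkx6.1 than with Adβgal (1e-05). Cxcl10, an interferon-induced chemokine for T cells, averaged 11.2 with AdNkx6.1 and 9.07 untreated (4.38-fold, adjusted p = 0.00011), and 10.56 with Adβgal (2.81-fold over untreated, 0.0099). Cxcl9, a related chemokine, rose 2.38-fold with AdNkx6.1 against untreated (0.0019). Il15, a cytokine that sustains T and natural killer cells, fell 2.02-fold (1.4e-05).

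Genes outside the list shared the array patterns. AdNkx6.1 replicate 1 and Adβgal replicates 5 and 6 were the 3 highest arrays in 188 of 14217 genes (1.32%), and in 9 of them stood at least 1 log2 unit above the fourth array. Of these 9, 4 were listed (Cr2, Ms4a1, Iglc1, Cxcl13) and the other 5, chosen after their values were seen, were Ighvl1, Mzb1, Cd37, Fcmr and Pou2af1. The 3 arrays were picked from the values of the listed B cell genes, so finding those genes among the 9 follows from that choice. Ighvl1, an immunoglobulin heavy chain segment by its symbol, had 8.86, 4.85, 4.46, 4.6 and 6.76 with AdNkx6.1, against 4.34, 4.86, 4.61, 7.3, 10.59 and 9.72 with Adβgal and 4.52 to 5.16 untreated. Pou2af1, a transcriptional coactivator of B cells, had 4.78 on AdNkx6.1 replicate 1 and 5.85 and 6.09 on Adβgal replicates 5 and 6, against 2.92 to 3.45 untreated. Fcmr, a receptor for immunoglobulin M, was high on the same 3 arrays (8.54, 9.93 and 9.03) but was also 7.06 to 7.36 on the other AdNkx6.1 arrays, against 4.49 to 5.95 on the other Adβgal arrays and 5.03 to 5.73 untreated.

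Adβgal replicates 4, 5 and 6 were the 3 highest arrays in 411 genes (2.89%). The genes with the widest gap, likewise chosen after their values were seen, were Plac8 (11.85, 11.93 and 12.03, against 7.47 to 9.79 untreated), Cd3g and the metalloproteinase gene Mmp3 (6.61, 6.21 and 6.2, against 3.41 to 4.36 untreated). Smooth muscle genes stood in the same set, with Actg2 at 8.35, 9.75 and 7.97 and Cnn1 at 7.28, 8.91 and 7.09, as did acinar genes such as Cel (11.31, 10.81 and 10.78, against 8.48 to 9.29 untreated). P2ry10, a receptor of lymphocytes, had 7.59, 7.07 and 6.19, against 3.86 to 4.61 untreated.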
